A study of Mus musculus with 18 samples.

Results

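Transcripts of 48 genes that copy DNA or prepare the cell for copying it were compared across 18 arrays of medulloblastoma, a cerebellar tumour, from mice. The genes were taken from a list of symbols, and each was represented by 1 probe set, the one with the highest mean where a gene had several. All 48 listed symbols had a probe set, among 19938 genes in all. The samples fell into 5 groups by genotype and by a subtype name, NG, GFD or GFI, which the labels do not spell out. Of the Ptch samples 4 were titled NG-Ptch, 2 GFD-Ptch and 4 GFI-Ptch. Of the Smo samples 4 carried the title NG-Smo;Atoh1-CreER, shortened to NG-Smo here, and 4 the title GFD-Smo;GFAP-cre, shortened to GFD-Smo. Total RNA was hybridized to Affymetrix Gene ST arrays, 1 array per sample, and all levels below are log2 units as deposited. The labels used here give no allele, strain or age. They do not say that replicates came from separate animals or tumours, so the p-values reflect array-to-array spread alone, which may be technical.

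Ptch is the receptor that holds the signal transducer Smo in check, and either loss of Ptch or an activated Smo drives Sonic hedgehog signalling, the growth signal of cerebellar granule neuron progenitors. Atoh1-CreER acts in those progenitors when tamoxifen is given, whereas GFAP-cre acts in a wider set of neural progenitors and glia. Among Smo tumours every NG array has Atoh1-CreER and every GFD array GFAP-cre, so effects of subtype and driver cannot be told apart. GFI-Ptch replicate 4 is labelled as progressed from another tumour and carried by an NSG female host, an immunodeficient mouse, and is called the transplanted tumour. No healthy cerebellum was among the arrays, so every comparison is between tumours.

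A dividing cell licenses its replication origins by loading the ring of Mcm2 to Mcm7 with the help of the origin recognition complex, Cdc6 and Cdt1. Cdc45 and the GINS proteins then turn the ring into a moving helicase, primase and the polymerases copy the strands, and the clamp Pcna, loaded by replication factor C, keeps the polymerases on DNA. E2F factors and cyclin E switch on many of these genes as the cell passes from G1 into S phase. In whole tumours fewer cycling cells and less of a transcript per cycling cell cannot be told apart.

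The promoters of the members that carried the differences were read from RefSeq (mouse build GRCm38.p6), which held 45 start windows for 39 of the 48 members. Each window ran from 250 bases before to 50 bases after a gene start. The words searched on both strands were the E2F-type 8-base words TTTCCCGC, TTTGGCGC, TTTCGCGC and TTTGCCGC, and CCAAT. Only these exact words were searched, so a window without them may still hold an E2F site of another form. Among the 6 members that passed a test in any comparison, Mcm2 and Chaf1a held none of these exact E2F-type words. They are shown beside Mcm6, a subunit of the same ring as Mcm2, which held 3. The Chaf1a line does hold the letters ttcccgccaaa, within 1 base of TTTCCCGC and, on the other strand, of TTTGGCGC. Chaf1a thus lacks the exact words but not a close form of them. Mcm2 lies at chr6:88898781-88899030 (minus strand), Chaf1a at chr17:56040166-56040415 (plus strand) and Mcm6 at chr1:128359706-128359955 (minus strand). Each line below gives the 250 bases before the start, 5′ to 3′ along the gene, with E2F-type words and CCAAT (on either strand) in capitals. In Mcm6 the longer run of capitals is 2 overlapping words on opposite strands.
Mcm2: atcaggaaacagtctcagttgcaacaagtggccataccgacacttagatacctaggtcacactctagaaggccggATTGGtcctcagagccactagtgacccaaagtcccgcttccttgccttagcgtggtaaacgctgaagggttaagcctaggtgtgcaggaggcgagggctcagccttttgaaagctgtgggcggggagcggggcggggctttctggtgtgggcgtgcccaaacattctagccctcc
Chaf1a: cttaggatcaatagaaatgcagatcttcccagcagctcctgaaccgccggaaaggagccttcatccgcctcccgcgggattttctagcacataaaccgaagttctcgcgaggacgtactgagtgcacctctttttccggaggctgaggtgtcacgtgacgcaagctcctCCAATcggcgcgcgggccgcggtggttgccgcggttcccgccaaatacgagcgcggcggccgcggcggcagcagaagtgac
Mcm6: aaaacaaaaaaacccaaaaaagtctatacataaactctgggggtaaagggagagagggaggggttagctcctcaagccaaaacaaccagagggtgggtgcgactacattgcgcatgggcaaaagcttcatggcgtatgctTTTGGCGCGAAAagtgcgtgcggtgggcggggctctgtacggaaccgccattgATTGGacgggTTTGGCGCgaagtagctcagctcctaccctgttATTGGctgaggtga

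Another 3 of the 6 members, E2f2, Cdt1 and Pold1, held 1 E2F-type word each, just after the start. The word began at base 40 of E2f2 (chr4:136172303-136172323, plus strand), base 33 of Cdt1 (chr8:122568037-122568064, plus strand) and base 40 of Pold1 (chr7:44548766-44548786, minus strand), counting from 1 at the first transcribed base. The lines give these words in capitals with the bases beside them.
E2f2: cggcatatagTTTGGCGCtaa
Cdt1: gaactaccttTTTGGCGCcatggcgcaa
Pold1: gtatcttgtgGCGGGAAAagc
The only E2f1 window held none of them, but its start lay 466 bases inside the annotated gene, so the bases before the gene's 5′ end were not read. Over all members 16 of 45 windows (35.6%) held an E2F-type word, against 744 of 32851 windows of all genes (2.26%). Of the 5 ring subunits with a window, 4 held one, Mcm2 being the exception. CCAAT stood in 26 of the 45 windows (57.8%) and in 37.4% of all windows. A start lay inside the annotated gene in 19 of the 45 windows, so these windows describe 1 of several possible starts. A word in a window is a description of its letters and was not tied to the expression differences by any test.

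Differences among arrays touch the values that follow. NG-Smo replicate 4 had the lowest level of its group in 46 of the 48 members, and the transplanted tumour in 34. The median of 5 oligodendrocyte genes was 10.03 in NG-Smo replicate 4, where its group otherwise had 7.56 to 7.91. The median of 8 muscle genes was 9.99 in the transplanted tumour and 7.41 to 7.59 in the other GFI-Ptch arrays. Astrocyte genes (8 measured) had medians of 11.57 to 11.69 in GFD-Smo, 9.85 to 10.17 in NG-Smo, 8.69 to 8.86 in GFD-Ptch, 10.32 to 10.69 in NG-Ptch and 8.55 to 10.98 in GFI-Ptch. Atoh1, which marks granule neuron progenitors, averaged 11.90 to 12.38 by group, but 1 marker does not stand for its list. The median of 10 progenitor genes averaged 11.63 in NG-Smo and 11.74 in GFD-Smo. It averaged 11.91 in NG-Ptch, 11.94 in GFD-Ptch and 11.80 in GFI-Ptch. Lymphocyte genes stayed at 5.99 to 6.41 in every array, close to the lower quartile of the arrays (6.21 to 6.38).

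The members as a whole stood at much the same level in every group. Their median per array averaged 10.26 ± 0.08 (SD, n = 4) in NG-Ptch, 10.14 ± 0.10 (n = 2) in GFD-Ptch, 10.24 ± 0.08 (n = 4) in GFI-Ptch, 10.26 ± 0.21 (n = 4) in NG-Smo and 10.24 ± 0.05 (n = 4) in GFD-Smo. The largest gap between group means was smaller than the SD among the NG-Smo arrays alone. Single members varied over all 18 arrays by 0.34 (Pold3, a polymerase delta subunit) to 1.33 log2 units (Ccne1, cyclin E1). The 6 members Mcm2, Cdt1, Pold1, Chaf1a, E2f1 and E2f2 passed the test in any of the 7 contrasts fitted. Every such call was for a lower level in GFD-Smo or, for Mcm2, for a difference between the models. The contrast GFD-Smo minus GFD-Ptch alone called 15.6% of all genes. The share of all genes called in any contrast is not given here, so the count of 6 is not a result about the members as a class.

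**Figure D1:**
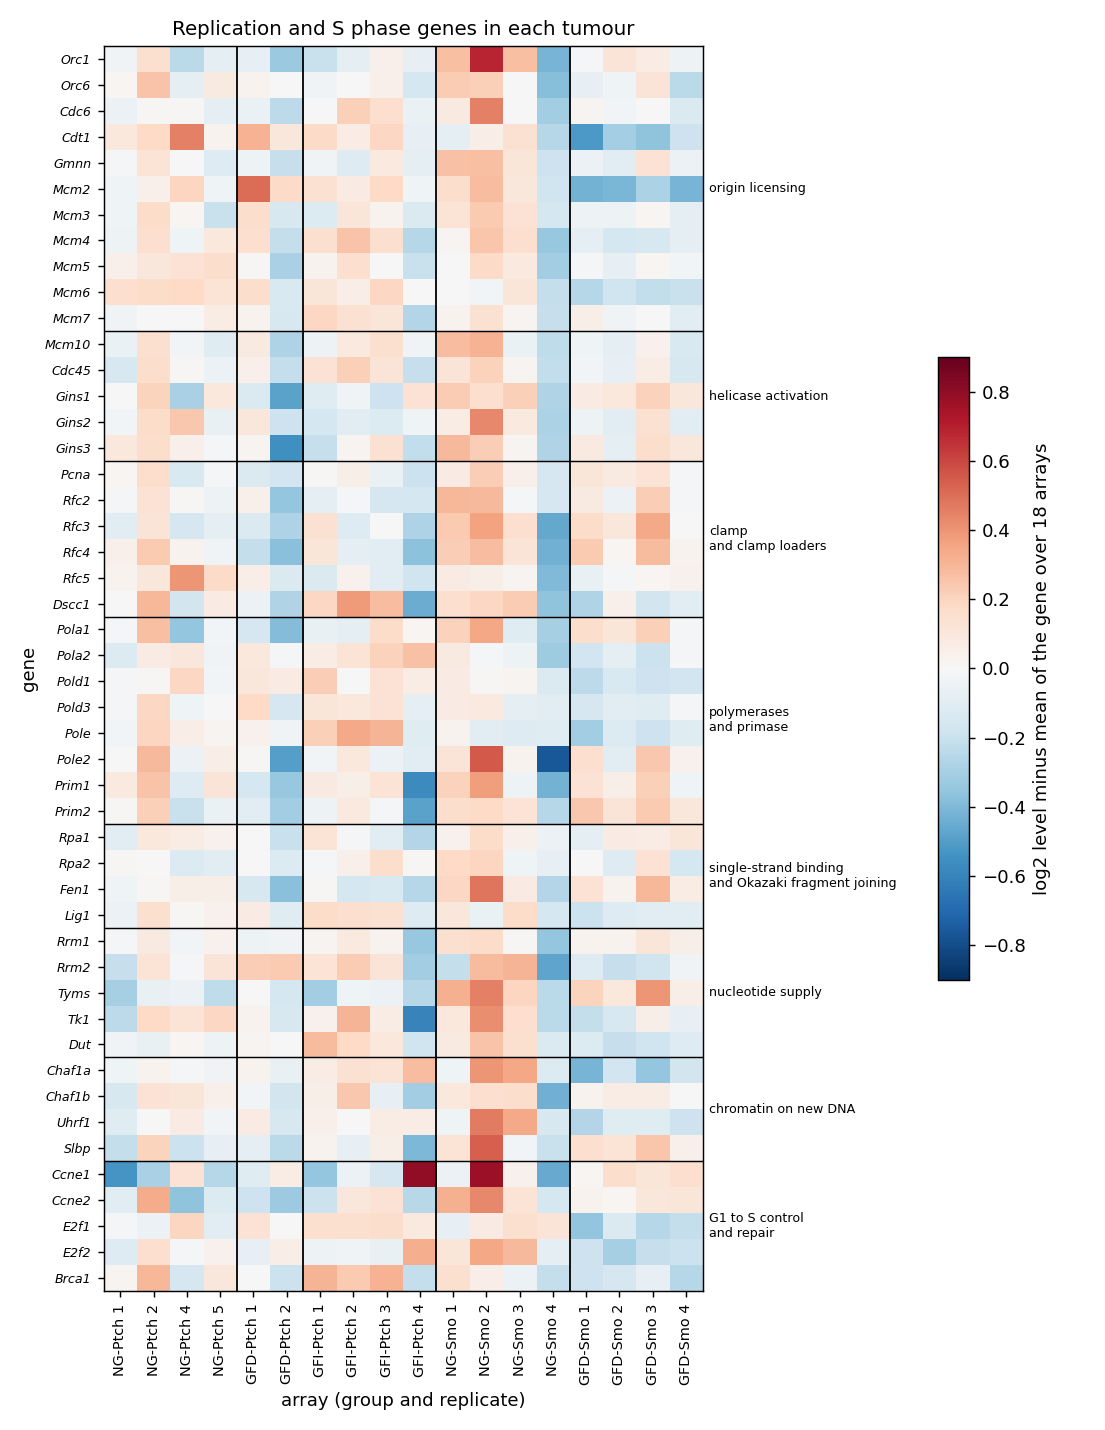
Level of each of the 48 members (vertical axis, by role) in each of the 18 arrays (horizontal axis, by group and replicate) as the log2 difference from that gene's mean over all arrays. NG-Smo replicate 4 is blue in nearly every gene and NG-Smo replicate 2 mostly red, while the GFD-Smo columns are blue in Cdt1, Mcm2, Mcm6, Chaf1a, E2f1 and E2f2 and pale in most other genes.

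GFD-Smo tumours had less Mcm2, E2f1, Chaf1a and E2f2 RNA than NG-Smo tumours, and no member was called higher. Limma called 4 of the 48 members lower and 0 higher at an adjusted p under 0.05, where 2.49% of all genes were called lower and 2.81% higher, 5.31% in all. The median change of the members was -0.09 and that of all genes -0.01. Without NG-Smo replicate 2 the members' median was -0.01, and without NG-Smo replicate 4 it was -0.15. Estimates were below 0 for 33 of the 48 members, against 53.9% of all genes, and 9 members had an unadjusted p under 0.05, against 15.9% of all genes.

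Mcm2, a subunit of the replicative helicase ring, read 12.01, 12.13, 11.95 and 11.67 in the NG-Smo arrays. In the GFD-Smo arrays it read 11.42, 11.44, 11.57 and 11.43. The groups did not overlap, and even the low NG-Smo replicate 4 stood above all GFD-Smo arrays. The difference was -0.48 (SE 0.094, 95% interval -0.68 to -0.28, limma adjusted p = 0.00677), a fall of 1.39-fold.

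E2f1, a transcription factor that switches on S phase genes, read 10.72, 10.87, 10.93 and 10.91 in NG-Smo and 10.44, 10.66, 10.53 and 10.58 in GFD-Smo. Every GFD-Smo array lay below every NG-Smo array, by a difference of -0.30 (SE 0.068, limma adjusted p = 0.0152). E2f2, a second activating E2F factor, read 8.82, 9.06, 9.0 and 8.62 in NG-Smo against 8.52, 8.41, 8.5 and 8.51 in GFD-Smo. The groups were apart, but the NG-Smo arrays were spread widely and replicate 4 came close to GFD-Smo. Its difference was -0.38 (SE 0.10, limma adjusted p = 0.0332).

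Chaf1a, the large subunit of the chromatin assembly factor that places histones on new DNA, read 9.73, 10.16, 10.11 and 9.64 in NG-Smo and 9.34, 9.59, 9.42 and 9.60 in GFD-Smo. The NG-Smo arrays formed a high and a low pair, and the lower pair was only just above the highest GFD-Smo array. The difference was -0.42 (SE 0.10, limma adjusted p = 0.0229). Its partner subunit Chaf1b did not show a gap, at 10.71 ± 0.29 (SD, n = 4) in NG-Smo and 10.76 ± 0.03 (n = 4) in GFD-Smo (limma interval of the difference -0.22 to 0.32).

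Pold1, the catalytic subunit of polymerase delta, was the fifth member whose groups did not overlap, all lower, against 6.59% of all genes apart in that direction and 5.99% in the other. It read 10.15, 10.09, 10.10 and 9.95 in NG-Smo and 9.84, 9.94, 9.89 and 9.91 in GFD-Smo, and the nearest arrays of the groups all but met. Its change of -0.18 did not pass (limma adjusted p = 0.12).

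By role, all 11 origin licensing genes had estimates below 0, from -0.48 for Mcm2 to -0.01 for Mcm5, but Mcm2 alone was called. Cdt1, which loads the ring, had -0.31 (adjusted p = 0.124) and Mcm6 -0.18 (adjusted p = 0.176). Among the 8 polymerase and primase genes 4 estimates lay above 0 and 4 below, and 4 of the 6 clamp and clamp loader genes lay above 0, none of them called. Helicase activation genes had 4 of 5 below 0, single-strand binding and Okazaki fragment genes 3 of 4, and nucleotide supply genes 3 of 5, with none called. Dut, which removes dUTP, had -0.25 (adjusted p = 0.141), and Uhrf1, which helps copy DNA methylation onto new strands, had -0.32 (adjusted p = 0.103).

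Mcm2 was called in this comparison under all 28 alternative settings and E2f1 under 27, whereas Chaf1a was called under 22 and E2f2 under 18. Without NG-Smo replicate 4 limma called 7 members lower, Mcm6, Dut and Uhrf1 joining the 4. Without GFD-Smo replicate 1 it called Mcm2 alone, and without NG-Smo replicate 2, NG-Smo replicate 3 or GFD-Smo replicate 3 it called Mcm2 and E2f1. E2f2 was also lost without NG-Smo replicate 1, GFD-Smo replicate 2 or GFD-Smo replicate 4. With array weights limma called 9 members lower, and with only these 2 groups in the fit it called 2. The shares of all genes called under these settings are not given here, so the counts describe the settings only.

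**Figure D2:**
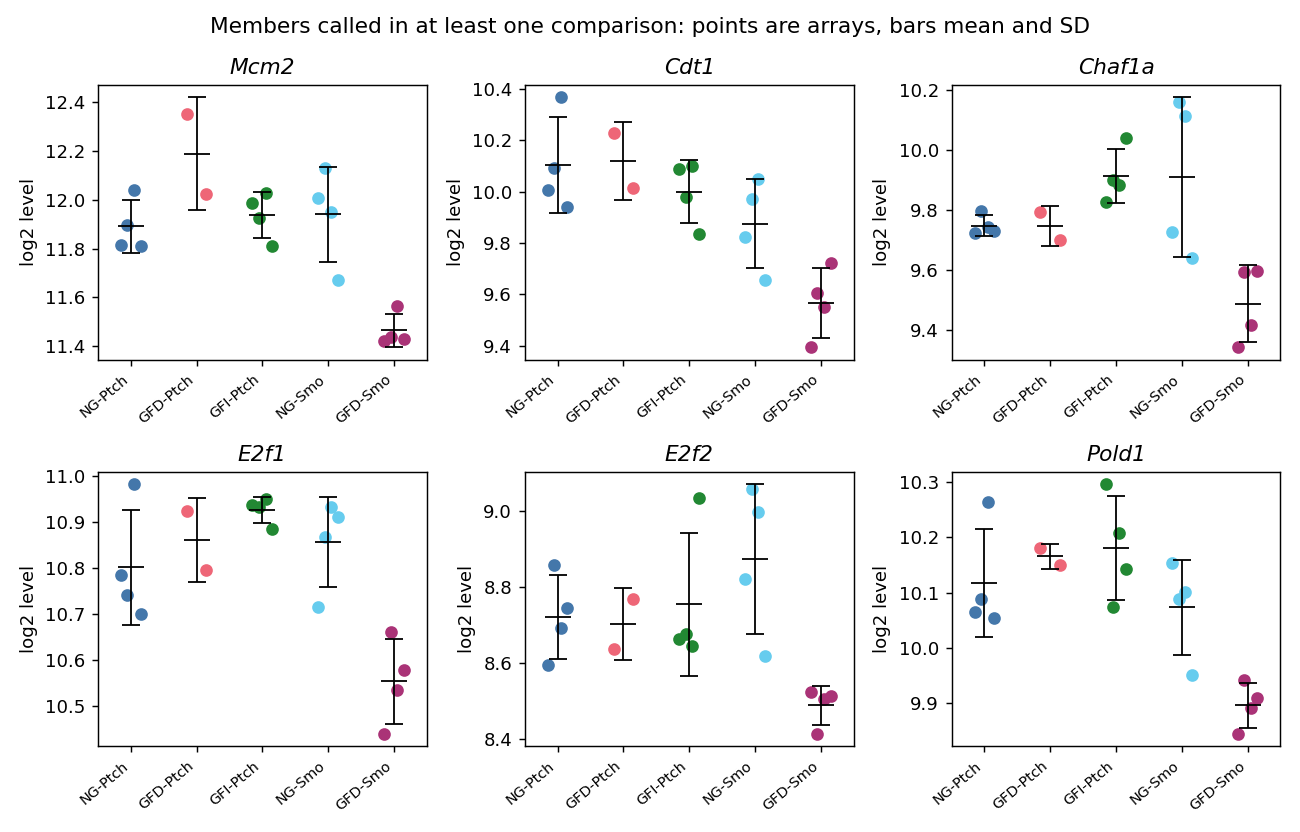
Log2 level (vertical axes) of the 6 members called in at least 1 comparison, in the 5 groups (horizontal axes). Points are arrays and bars are the mean and SD of 4 arrays (2 for GFD-Ptch). The GFD-Smo points of Mcm2 lie at 11.42 to 11.57, below every other array of that gene.

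Astrocyte and microglia genes differed between the same arrays. All 8 astrocyte genes had estimates above 0 in GFD-Smo, with a median of 1.32 and 4 called, and 4 of 9 microglia and macrophage genes were called lower. All 5 endothelial genes had estimates above 0 with 1 called, and all 8 muscle genes had estimates above 0 with none called. Of 10 granule neuron progenitor genes 6 had estimates above 0 and 4 below, with 4 at an unadjusted p under 0.05 and none called. The microglia and macrophage medians of the arrays overlapped, at 9.67 to 9.90 in GFD-Smo and 9.64 to 10.25 in NG-Smo. Their part in the differences of the members was not tested. The general proliferation marker Mki67 averaged 12.27 ± 0.02 (SD, n = 4) in GFD-Smo and 12.41 ± 0.08 (n = 4) in NG-Smo, a change of -0.14 that was not called (limma adjusted p = 0.515). Of 29 mitosis genes 26 had estimates below 0, with a median of -0.09, and limma called none of them (2 at an unadjusted p under 0.05).

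Other replication genes, 54 of them measured, had a median change of -0.06, with 2 called lower and 1 higher. Pole4, an accessory subunit of polymerase epsilon, fell by 0.41 (SE 0.085, limma adjusted p = 0.0104) from 11.26 ± 0.20 to 10.85 ± 0.04 (SD, n = 4 each). Dnmt1, the maintenance DNA methyltransferase, fell by 0.29 (limma adjusted p = 0.0357). Pold4, the smallest subunit of polymerase delta, was 0.33 higher in GFD-Smo (limma adjusted p = 0.0223). Polymerase delta thus had 1 subunit called higher, while its catalytic subunit Pold1 had a negative estimate that was not called.

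**Figure D3:**
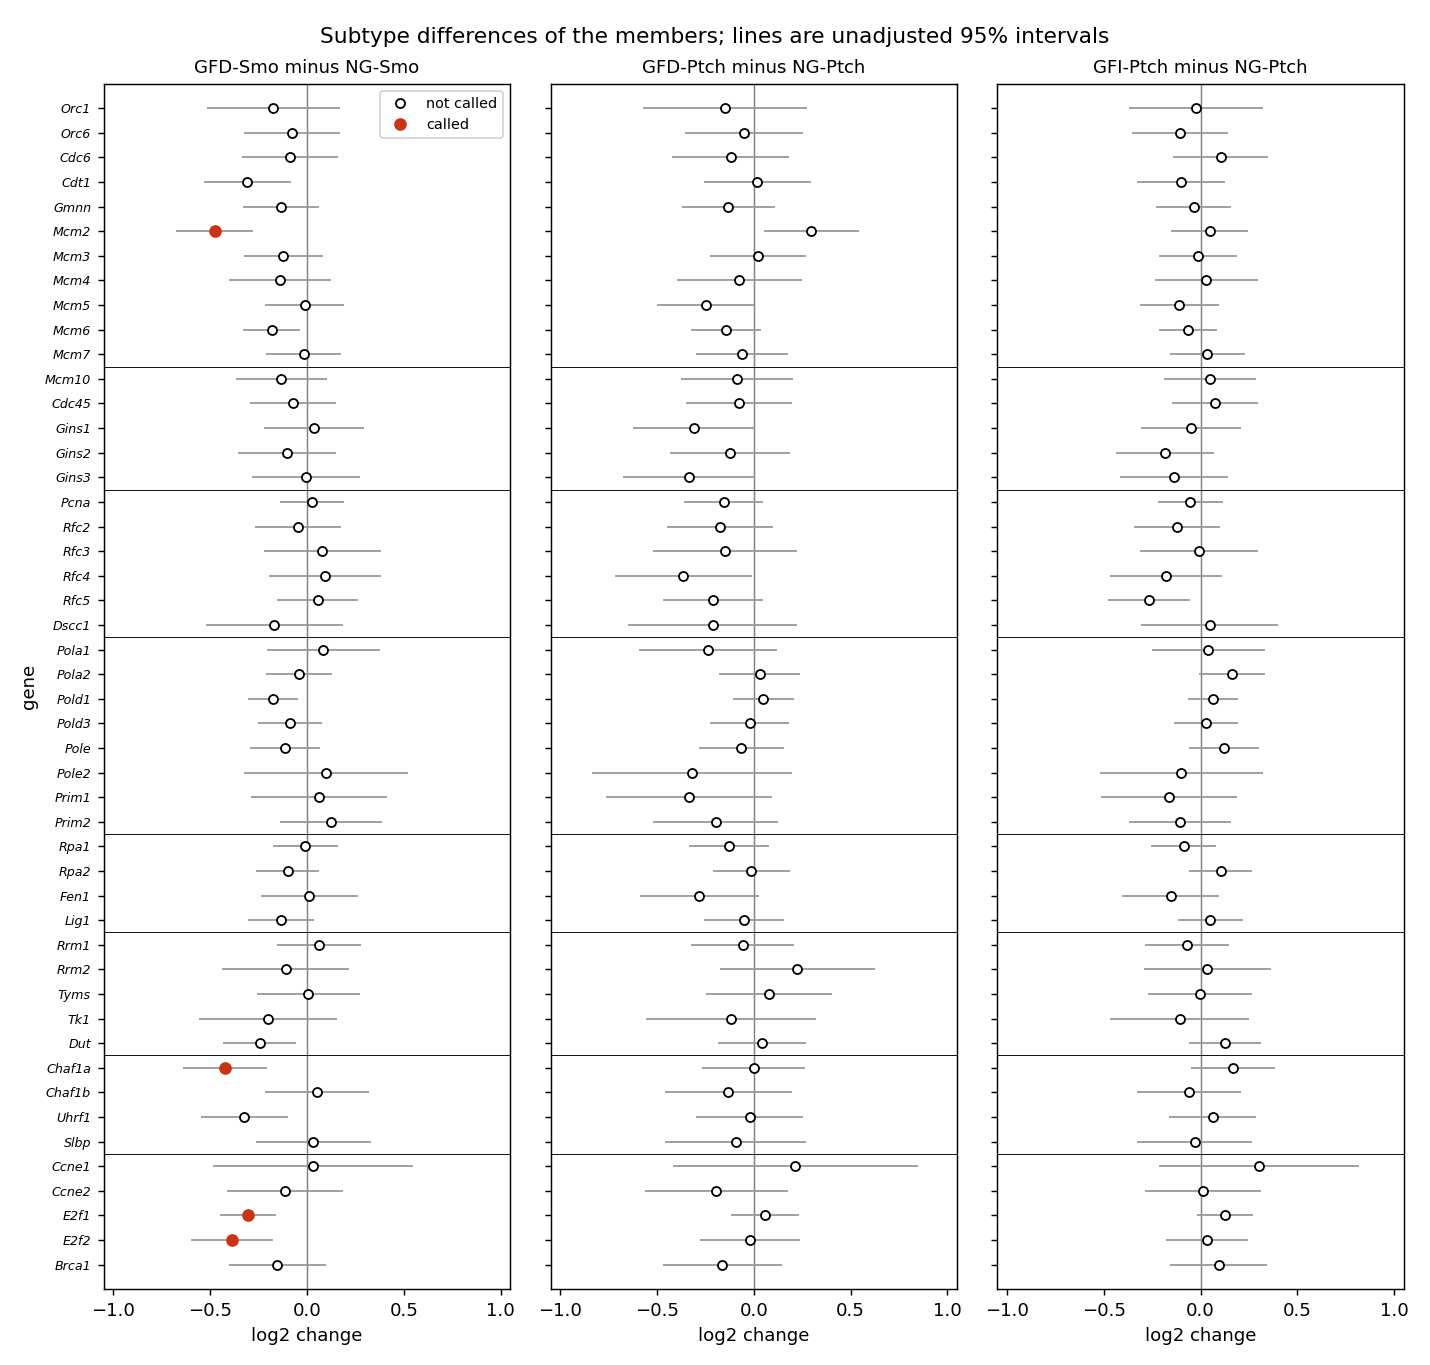
Log2 change of each member (vertical axis, by role) for the subtype comparisons GFD-Smo minus NG-Smo, GFD-Ptch minus NG-Ptch and GFI-Ptch minus NG-Ptch (horizontal axes). Points are estimates, filled where called at an adjusted p under 0.05, and lines are unadjusted 95% intervals. Filled points occur only in the Smo panel, at Mcm2 (-0.48), Chaf1a (-0.42), E2f1 (-0.30) and E2f2 (-0.38).

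The comparison of GFD tumours between the models, GFD-Smo minus GFD-Ptch, shares the GFD-Smo arrays with the comparison above and rests on only 2 GFD-Ptch arrays. Mcm2, Cdt1, E2f1 and Pold1 were lower in GFD-Smo. Limma called 4 of 48 members lower and 0 higher, where 7.1% of all genes were called lower and 8.5% higher, 15.6% in all. The median change of the members was 0.04 and that of all genes -0.06, and 19 of 48 estimates lay below 0, against 60.8% of all genes. Without GFD-Ptch replicate 2 the members' median turned to -0.06, and without GFD-Ptch replicate 1 it was 0.14. At an unadjusted p under 0.05 stood 11 members, against 33.3% of all genes.

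Mcm2 read 12.35 and 12.03 in GFD-Ptch, against the GFD-Smo values of 11.42 to 11.57 given above. Both GFD-Ptch arrays were above all 4 GFD-Smo arrays, and the change was -0.72 (SE 0.12, 95% interval -0.97 to -0.48, limma adjusted p = 0.000719), a fall of 1.65-fold. Cdt1 read 10.23 and 10.01 in GFD-Ptch and 9.39, 9.60, 9.55 and 9.72 in GFD-Smo. The groups were again apart, by a difference of -0.55 (SE 0.13, limma adjusted p = 0.0104). E2f1 read 10.93 and 10.80 in GFD-Ptch, above the 4 GFD-Smo values, with a change of -0.31 (limma adjusted p = 0.0221). Pold1 read 10.18 and 10.15 in GFD-Ptch, also above all GFD-Smo arrays, with a change of -0.27 (limma adjusted p = 0.0241).

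The estimates of the other roles went both ways and none of their genes was called higher. All 6 clamp and clamp loader genes and all 5 helicase activation genes had estimates above 0, the 8 polymerase and primase genes split into 4 above and 4 below with Pold1 called lower, and 3 of 5 nucleotide supply genes lay below 0. Rfc4, a clamp loader subunit, read 11.91 and 11.75 in GFD-Ptch against 12.36, 12.15, 12.41 and 12.16 in GFD-Smo, a change of 0.44 (limma adjusted p = 0.0852). Gins1, part of the active helicase, read 9.24 and 8.89 against 9.45, 9.47, 9.58 and 9.47, a change of 0.43 (limma adjusted p = 0.063). In both genes every GFD-Smo array was above both GFD-Ptch arrays. Groups did not overlap for 14 members higher and 10 lower, where 23.4% and 33.7% of all genes were apart in these directions. These counts rest on 2 GFD-Ptch arrays, and replicate 2 was the lower of them in 44 of 48 members. They were not tested against the shares over all genes.

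Mcm2 was called in this comparison under all 28 alternatives. Without GFD-Ptch replicate 1 limma called Mcm2 lower and Gins3, a GINS subunit, higher (2 members), and without GFD-Smo replicate 1 Mcm2 and Cdt1 (2 members). Without GFD-Ptch replicate 2 it called Mcm2, Cdt1 and Mcm6, so that E2f1 and Pold1 were lost without either GFD-Ptch array. Without NG-Smo replicate 4, an array outside the comparison that sets part of the shared spread, it called 9 members, 4 of them higher (Fen1, Gins1, Rfc3 and Rfc4). Without that array and the transplanted tumour it called 13, of which 7 were higher. With only these 2 groups in the fit it called 17 (10 of them higher), with array weights 14 (8 of them higher), and after median centring 2 (Mcm2 and Cdt1). The shares of all genes called under these settings are not given here. Larger counts may therefore reflect more calls in general and are not a result about the members. Astrocyte genes had a median change of 2.56 in the same comparison, with 7 of 8 called higher, and 4 of 9 microglia and macrophage genes were called higher too. All 7 oligodendrocyte progenitor genes had estimates above 0 with 3 called, all 5 oligodendrocyte genes with 1 called, and 1 of 5 endothelial genes was called higher. Of 11 neuron genes 2 were called higher and 2 lower. Of 10 granule neuron progenitor genes 9 had estimates below 0 and 1 above, with none called. Their part in the members' differences was not tested.

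Among the other replication genes 5 were called higher and 2 lower of 54, where 8.5% of all genes were called higher and 7.1% lower. Orc5 (0.56) and Orc3 (0.46), subunits of the origin recognition complex, the histone chaperone Asf1a (0.44), the S phase kinase Cdk2 (0.38) and Pold4 (0.34) were higher in GFD-Smo, with limma adjusted p from 0.00944 to 0.0428. Pole4 fell by 0.50 (limma adjusted p = 0.0052) and Dnmt1 by 0.34 (limma adjusted p = 0.0242). Of 29 mitosis genes 2 were called lower, the mitotic transcription factor Foxm1 by -0.91 (limma adjusted p = 0.0046) and the checkpoint protein Mad2l1 by -0.43 (limma adjusted p = 0.0188). The cell cycle inhibitor Cdkn1b was also lower, by -0.49 (limma adjusted p = 0.00897). Given those shares over all genes, these calls describe single genes and not their classes.

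The GFD minus NG difference was then compared between the models directly. Mcm2 was the one member called, with a difference of -0.77 between the Smo and the Ptch model (SE 0.15, limma adjusted p = 0.0106), where 1.4% of all genes were called lower and 2.4% higher, 3.81% in all. Within the Ptch tumours its estimate ran the opposite way, from 11.81, 11.90, 12.04 and 11.81 in NG-Ptch to 12.35 and 12.03 in GFD-Ptch. NG-Ptch replicate 4 overlapped the lower GFD-Ptch array, and that change of 0.30 was not called (SE 0.12, limma adjusted p = 0.245). E2f1 had a difference between models of -0.36 (limma adjusted p = 0.0756), Chaf1a -0.42 (limma adjusted p = 0.165) and Rfc4 0.46 (limma adjusted p = 0.248). These intervals were wide, as for Rfc4 (0.00057 to 0.92), and over all members 24 estimates lay on each side of 0, against 60.5% of all genes below 0. An unadjusted p under 0.05 was reached by 6 members and by 20.1% of all genes.

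The call for Mcm2 was lost without GFD-Ptch replicate 1 (-0.61, limma adjusted p = 0.0694) and with the gender label in the model (-0.74, limma adjusted p = 0.0797), and its limma adjusted p over the 28 alternatives ran from 0.00106 to 0.0797. Leaving out either NG-Smo replicate 1 or NG-Ptch replicate 4 added E2f1 to the calls (2 members each). Of 8 astrocyte genes 6 were called higher in the same contrast, and their part in the Mcm2 difference was not tested.

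Mcm2 also departed from the mean of the other subunits of its own ring, although in GFD-Smo Mcm6 overlapped it. There the arrays of Mcm6 ran from -0.41 to -0.33 and those of Mcm2 from -0.47 to -0.32, each relative to NG-Ptch. With each gene set to its NG-Ptch mean, Mcm2 averaged -0.43 ± 0.07 (SD, n = 4) in GFD-Smo and 0.30 ± 0.23 (n = 2) in GFD-Ptch. In GFD-Smo Mcm6 averaged -0.37 ± 0.03, Mcm4 -0.16 ± 0.04, Mcm5 -0.13 ± 0.04, Mcm3 -0.03 ± 0.04 and Mcm7 -0.03 ± 0.07 (SD, n = 4). Mcm6 was thus also below its NG-Ptch level there, but it was already at -0.19 ± 0.13 (n = 4) in NG-Smo. The level of Mcm2 against the mean of the other subunits, relative to NG-Ptch, was 0.40 ± 0.03 (n = 2) in GFD-Ptch, 0.07 ± 0.09 (n = 4) in GFI-Ptch, 0.10 ± 0.06 (n = 4) in NG-Smo and -0.28 ± 0.06 (n = 4) in GFD-Smo. This relative level shows unequal change within the ring and not that any subunit was constant. It was computed for Mcm2 alone, a member already picked by its calls.

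**Figure D4:**
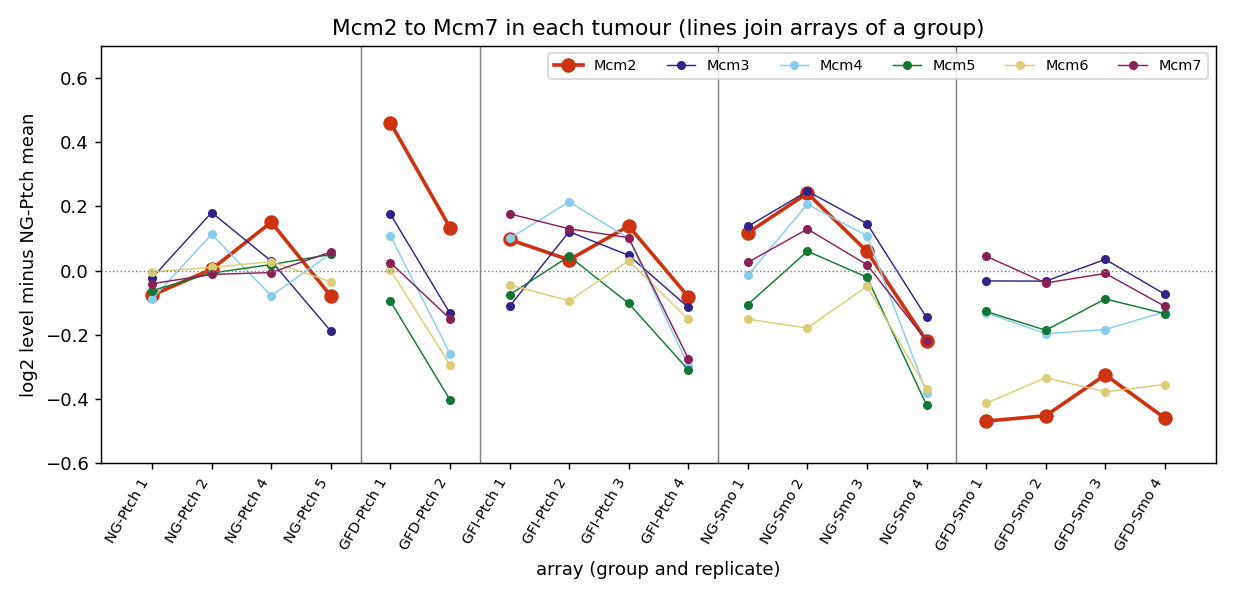
Log2 level of Mcm2 to Mcm7 minus the NG-Ptch mean of each gene (vertical axis) in each array (horizontal axis). Lines join a gene's points within a group and imply no order of replicates. Mcm2 lies between -0.47 and -0.32 in the GFD-Smo arrays and at 0.46 and 0.13 in the GFD-Ptch arrays, while in GFD-Smo Mcm6 averages -0.37 and Mcm3 and Mcm7 lie near 0 (means of -0.03).

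Among the Ptch subtypes no member was called. In GFD-Ptch minus NG-Ptch 38 of 48 estimates lay below 0, against 41.9% of all genes, with a median of -0.11 (all genes 0.04). Limma called 0 members at an adjusted p under 0.05, where it called 0.01% of all genes, and 2 members (Mcm2 and Rfc4) at an unadjusted p under 0.05, as were 16.9% of all genes. All 6 clamp and clamp loader genes, all 5 helicase activation genes and all 4 chromatin genes lay below 0. The 2 GFD-Ptch arrays disagreed, replicate 2 standing below replicate 1 in 44 of 48 members by a median of 0.18. The members' median was -0.20 without replicate 1 and -0.02 without replicate 2, and it was -0.06 without NG-Ptch replicate 2.

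The 3 largest changes were in Rfc4, Gins3 and Prim1, the catalytic subunit of primase. Rfc4 read 12.17, 12.36, 12.16 and 12.10 in NG-Ptch and 11.91 and 11.75 in GFD-Ptch, apart by a change of -0.36 (limma adjusted p = 0.287). Gins3 read 9.64, 9.71, 9.59 and 9.53 against 9.57 and 8.99, so that only GFD-Ptch replicate 2 was low (-0.34, limma adjusted p = 0.298). Prim1 read 10.73, 10.90, 10.53 and 10.76 against 10.48 and 10.30, apart by a change of -0.34 (limma adjusted p = 0.385). Groups did not overlap for 5 lower members (Mcm5, Rfc4, Prim1, Fen1 and Rrm1, where 14% of all genes were apart) and 1 higher, Rrm2, the regulated subunit of ribonucleotide reductase (20.6% of all genes). Rrm2 read 11.20, 11.54, 11.40 and 11.52 in NG-Ptch and 11.63 and 11.65 in GFD-Ptch, and its partner subunit Rrm1 lay the other way at 12.12 ± 0.05 (SD, n = 4) and 12.06 ± 0.01 (n = 2). All 8 astrocyte, all 7 oligodendrocyte progenitor and all 9 microglia and macrophage genes also had estimates below 0, with medians of -1.03, -0.77 and -0.44. None of these was called, although 6, 4 and 4 had an unadjusted p under 0.05, and their part in the members' estimates was not tested.

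GFI-Ptch tumours yielded no call against NG-Ptch tumours. Limma called 0 of 48 (and 0% of all genes), and 1 member, Rfc5, had an unadjusted p under 0.05 (8.53% of all genes). The estimates split into 23 above and 25 below 0 (41.4% of all genes lay below) with a median of -0.01. All 7 oligodendrocyte progenitor genes had estimates below 0, with a median of -1.02 and none called. Of 11 neuron genes 9 had estimates below 0, with a median of -0.58, 5 at an unadjusted p under 0.05 and none called. Muscle genes had 7 of 8 estimates above 0, with a median of 0.77 and none called. Their part in the members' estimates was not tested. The largest estimate was that of Ccne1, which drives entry into S phase. It read 9.07, 9.31, 9.73 and 9.34 in NG-Ptch and 9.25, 9.54, 9.45 and 10.40 in GFI-Ptch, so that the change of 0.30 (limma adjusted p = 0.766) rested on the transplanted tumour and was 0.05 without it. Rfc5, a clamp loader subunit, read 11.37, 11.43, 11.73 and 11.50 against 11.20, 11.37, 11.24 and 11.15, a change of -0.27 (limma adjusted p = 0.454). Gins2 read 9.81, 10.01, 10.08 and 9.77 against 9.68, 9.74, 9.72 and 9.80, a change of -0.18 (limma adjusted p = 0.715). Both genes overlapped between the groups. Chaf1a was the one member whose groups were apart, in the higher direction (2.05% of all genes were, and 2.8% in the lower direction), at 9.72 to 9.80 in NG-Ptch and 9.83 to 10.04 in GFI-Ptch, with a change of 0.16 (limma adjusted p = 0.701).

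In GFI-Ptch minus GFD-Ptch, which shares arrays with both comparisons before it, 39 of 48 estimates lay above 0 and 9 below, where 56.8% of all genes lay below, and the median was 0.10. That median rested on the GFD-Ptch arrays, being 0.19 without replicate 1 and 0.00024 without replicate 2, and it was 0.15 without the transplanted tumour. Limma called 0 members and 0.00502% of all genes, and 1 member (Mcm2) had an unadjusted p under 0.05, as did 9.79% of all genes. Pola1, the catalytic subunit of polymerase alpha, read 10.10 and 9.86 in GFD-Ptch and 10.17, 10.17, 10.41 and 10.26 in GFI-Ptch, apart by a change of 0.28 (limma adjusted p = 0.602). Dscc1, part of the loader that acts in sister chromatid cohesion, read 7.76 and 7.55 against 8.0, 8.20, 8.09 and 7.37, a change of 0.26 (limma adjusted p = 0.674), the transplanted tumour being the lowest of the 6 arrays. Gins1 read 9.24 and 8.89 against 9.26, 9.34, 9.19 and 9.5, a change of 0.26 (limma adjusted p = 0.589). Groups did not overlap for 2 members, Pola1 and Chaf1a, both higher in GFI-Ptch (6.98% of all genes were, and 9.48% lower). All 8 astrocyte, all 9 microglia and macrophage and all 8 muscle genes had estimates above 0 as well, with medians of 0.66, 0.47 and 0.64. Of 11 neuron genes 9 had estimates below 0, with a median of -0.46, and so had 4 of 5 endothelial genes (median -0.57). None of these was called, and their part in the members' estimates was not tested.

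No member was called between the NG tumours of the models either. In NG-Smo minus NG-Ptch limma called 0 members, where it called 0.607% of all genes higher and 0.436% lower, 1.04% in all. At an unadjusted p under 0.05 stood 4 members (Tyms, Mcm6, Rfc5 and Cdt1) and 10.6% of all genes. Estimates below 0 were found for 22 members and 47.1% of all genes. The members' median was 0.04, and it ran from -0.03 without NG-Smo replicate 2 to 0.14 without NG-Smo replicate 4. All 9 microglia and macrophage genes had estimates above 0, with a median of 0.56 and 3 called higher, and 9 of 10 granule neuron progenitor genes had estimates below 0, with 6 at an unadjusted p under 0.05 and none called. Their part in the members' estimates was not tested. Tyms, the enzyme that makes the thymidine precursor, read 10.49, 10.73, 10.74 and 10.57 in NG-Ptch and 11.11, 11.24, 10.98 and 10.55 in NG-Smo. All NG-Smo arrays except replicate 4 were above NG-Ptch, and the change was 0.34 (SE 0.13, limma adjusted p = 0.288). Orc1, the largest subunit of the origin recognition complex, read 8.06, 8.23, 7.84 and 8.0 against 8.36, 8.78, 8.36 and 7.67, a change of 0.26 (limma adjusted p = 0.672). It had the same pattern, with replicate 4 as the one low array. Ccne1 read 9.55, 10.37, 9.64 and 9.15 in NG-Smo, a wide spread that overlapped the NG-Ptch values given above, with a change of 0.31 (limma adjusted p = 0.803).

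Without NG-Smo replicate 4 limma called Tyms (0.48) and Orc1 (0.47) higher in NG-Smo, and the limma adjusted p over the 28 alternatives ran from 0.0149 to 0.679 for Tyms and from 0.0291 to 1.0 for Orc1. Without that array and the transplanted tumour Dut was called too (0.19), which made 3 members. The share of all genes called in that setting is not given here. Mcm6 was the one member whose groups did not overlap (2.68% of all genes were apart in that direction and 2.97% in the other), at 11.82, 11.83, 11.85 and 11.78 in NG-Ptch and 11.67, 11.64, 11.77 and 11.45 in NG-Smo. Its change of -0.19 was not called (limma adjusted p = 0.298).

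Arrays of the same group also differed from one another across most members. NG-Smo replicate 4 stood below the mean of the other NG-Smo arrays in 47 of 48 members, by a median of 0.41 log2 units, while its median over all genes was 0.04 above theirs. The gaps were largest for Pole2, a polymerase epsilon subunit (8.96 against 9.76 to 10.28), Orc1 (7.67 against 8.36 to 8.78), Ccne1 (9.15 against 9.55 to 10.37) and Rfc3 (9.93 against 10.54 to 10.75). E2f1 was the exception, at 10.91 against 10.72 to 10.93. NG-Smo replicate 2 had the highest level of its group in 32 members. The oligodendrocyte genes that were high in replicate 4 were given above, and their part in its low replication genes was not tested.

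The transplanted tumour was below the mean of the other GFI-Ptch arrays in 39 of 48 members, by a median of 0.19. Tk1, which salvages thymidine (9.47 against 10.11 to 10.37), Dscc1 (7.37 against 8.0 to 8.20), Prim1 (10.07 against 10.70 to 10.77) and Brca1, which acts in repair at stalled forks (9.71 against 10.17 to 10.24), were furthest below. Cyclin E1 was the opposite, with Ccne1 at 10.40 against 9.25 to 9.54, and so was E2f2 at 9.04 against 8.64 to 8.68. Gins1 was also higher, at 9.5 against 9.19 to 9.34. The muscle genes of this array included Myh3, at 10.77 against 5.87 to 6.07 in the other GFI-Ptch arrays, and their part in these values was not tested.

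Members varied together from array to array once group means were removed. Each member was set against the median of the other 47, over 18 arrays that share their normalization and group means. The median of these correlations was 0.78, with 42 of 48 above 0.5, against -0.07 for all genes, 0.62 for 29 mitosis genes and 0.60 for the 54 other replication genes. The highest were Pole2 (0.91), Rfc3 (0.90) and the helicase factor Cdc45 (0.90). The lowest were E2f1 (-0.08), Ccne1 (0.19), E2f2 (0.26), Pold1 (0.40), Chaf1a (0.41) and Pole, the catalytic subunit of polymerase epsilon (0.49). Of the 6 members called in any comparison, 4 were thus among the 6 that followed the others least. Calls and correlations both draw on the same spread within groups, so this overlap is a description and not independent support. Without NG-Smo replicate 4 and the transplanted tumour the median was 0.69 and 34 of 48 were above 0.5. The group means removed beforehand still held both arrays, so these values are not free of them. Cdt1 then had 0.26 (0.53 with these arrays) and Pold1 0.06, so that 5 of the 6 called members were among the 6 lowest, and Mcm2 had 0.75 (0.85 with them).

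**Figure D5:**
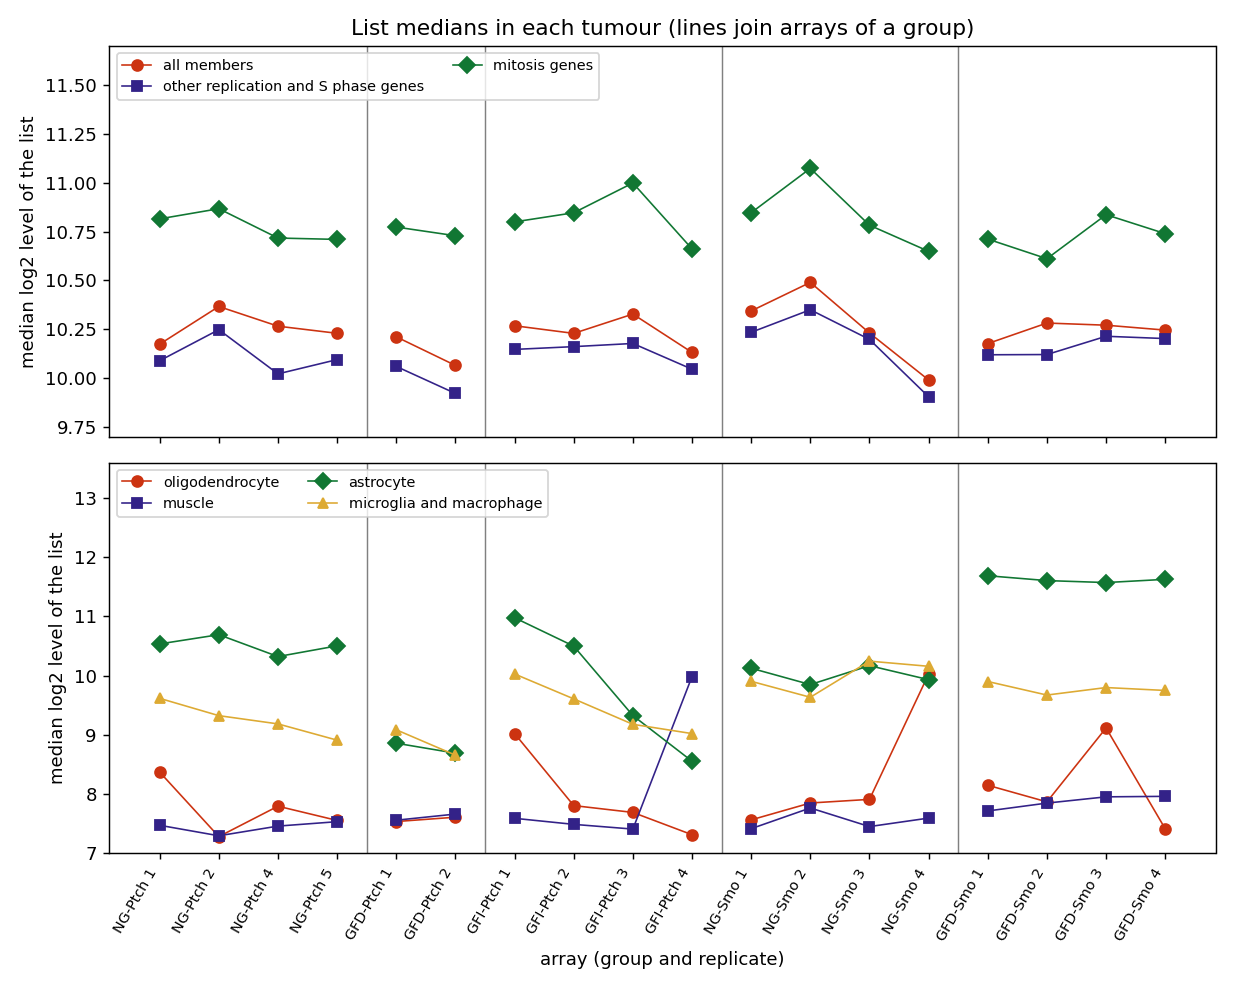
Median log2 level (vertical axes) of gene lists in each array (horizontal axis). Lines join arrays of a group and imply no order. The upper panel shows that the members, the other replication genes and the mitosis genes are all lowest of their group in NG-Smo replicate 4 (9.99, 9.90 and 10.65), and the lower panel shows the oligodendrocyte median of 10.03 in that array, the muscle median of 9.99 in GFI-Ptch replicate 4 and the astrocyte medians of 11.57 to 11.69 in GFD-Smo.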

How the data were processed

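The 18 arrays were Affymetrix mouse Gene ST arrays, 1 per sample. The values deposited by the authors were log2 levels per probe set, made in Partek 6.6 per the submitters' processing notes, with background correction, scaling and probe summary not given in the sources used here. Array medians lay between 7.74 and 7.87. GEO's platform annotation named 21789 of 35556 probe sets with 1 symbol, 1621 with several and 12146 with none, and only the first were used. Each of 19938 genes was represented by its probe set of highest mean. Pcna, Slbp and Tk1, the 3 members with a further probe set, were treated likewise. Limma 3.58.1 in R 4.3.3 was fitted to all genes and arrays with 5 group means and 7 contrasts, with Benjamini-Hochberg adjustment over all genes. The threshold for a call was an adjusted p under 0.05. Lower and higher refer to moderated estimates, and apart means that the values of the groups do not overlap. Promoters were searched in Python 3.11.15. The code of the fit was run on simulated data with independent noise per gene and planted changes. Members here varied together across arrays, so that run does not bear on the calls above. Values in every array are given for members called in any contrast and, where fewer than 3 were called, for the 3 largest changes, and genes of other lists were named only where called, or as 1 of a few set markers, with the remaining called genes given as counts. The members and all gene lists were chosen with earlier results of these data known. The 28 alternatives varied scaling, filter, probe set, arrays fitted, variance model, array weights, gender label, replicate block and each array left out in turn.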

Additional observations from a re-analysis of the deposited data

Results flagged for a closer look

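Each of the 48 members, and their median, was examined in each group of 4 arrays for a highest or lowest array far from the others. Of 196 such sets 15 (7.65%) had one, where chance gives about 1 in 20 for independent sets. In these cases the array was the lowest of its group 11 times and the highest 4 times. Members varied together and most cases came from the same few arrays, so the share cannot be read as an excess over chance. The transplanted tumour, GFI-Ptch replicate 4, stood apart in 6 members: Mcm7 at 11.77, Prim1 at 10.07, Lig1, the ligase that joins Okazaki fragments, at 10.44, Rrm1 at 11.76 and Brca1 at 9.71 were low, and E2f2 at 9.04 was high. NG-Smo replicate 4 stood apart as the lowest array in 5 members: Gins1 at 9.11, Rfc5 at 10.93, Dscc1 at 7.45, Prim2, the large subunit of primase, at 10.65, and Chaf1b at 10.28. The remaining cases were Pold1 in NG-Ptch replicate 4 (10.26, highest), Tk1 in NG-Ptch replicate 1 (9.83, lowest), Pole in NG-Smo replicate 1 (10.65, highest) and Mcm2 in GFD-Smo replicate 3 (11.57, highest). That Mcm2 value was still below every NG-Smo array.

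The GFD minus NG difference of Mcm2 was not the same in the models, by -0.77 (Smo minus Ptch, limma adjusted p = 0.0106). All 4 GFD-Smo arrays were below all 4 NG-Smo arrays, and the 2 GFD-Ptch arrays were above 3 of the 4 NG-Ptch arrays.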

How the results depend on the processing

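No named member's estimate changed sign. The median change of the members moved by less than 0.12, the SD of that median among arrays of a group, but relative to its size it moved widely with each array left out: -0.20 to -0.02 in GFD-Ptch minus NG-Ptch, -0.03 to 0.05 in GFI-Ptch minus NG-Ptch, 0.00024 to 0.19 in GFI-Ptch minus GFD-Ptch, -0.15 to -0.01 in GFD-Smo minus NG-Smo, -0.03 to 0.14 in NG-Smo minus NG-Ptch, -0.06 to 0.14 in GFD-Smo minus GFD-Ptch and -0.10 to 0.11 between models. The contrasts among Ptch tumours called 0 members under all 28 alternatives, and with 2 GFD-Ptch arrays a count of 0 says nothing about stability. In GFD-Smo minus NG-Smo (4 members) limma called 2 with only the contrast's groups fitted, 9 with array weights, 9 without NG-Smo replicate 4 and GFI-Ptch replicate 4 (an alternative chosen after seeing the data), and 1 to 7 with each array left out. In NG-Smo minus NG-Ptch (0 members) it called 3 without both those arrays and 0 to 2 with each array left out. In GFD-Smo minus GFD-Ptch (4 members) it called 2 after median centring, 17 with only the contrast's groups (10 of them higher), 14 with array weights (8 of them higher), 13 without both arrays and 2 to 9 with each array left out. In the difference between models (1 member) it called 5 with array weights, 0 with the gender label, 4 without both arrays and 0 to 2 with each array left out. None of these counts is set beside the share of all genes called under the same setting, so they do not single out the members. The cause of these shifts was not tested. Leaving out a GFD-Ptch array left 1, which was assumed to vary like the other groups. Titles give the groups shared replicate numbers. Of 29 correlations between same-numbered arrays of different groups only 4 passed 0.1 (range -0.31 to 0.19). Arrays of different numbers were not correlated for comparison, so this cannot decide whether the numbers pair the arrays. With the replicate block limma called 2 members in GFD-Smo minus NG-Smo (E2f1 and Mcm2), 6 in GFD-Smo minus GFD-Ptch and 1 between models (Mcm2, -0.72). Array number and the unknown probe-level processing limit precision.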
